A study of Mus musculus with 6 samples.

Results

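Transcripts of white and brown fat cells were followed in RNA sequencing of mouse heart muscle. The set held 10 genes chosen by symbol (Adipoq, Cfd, Plin1, Cidec, Lep, Retn, Pck1, Ucp1, Cidea and Fabp4), each matching 1 of the 17891 genes listed in at least 1 sample. The myocardium came from C57BL/6 mice aged 6 weeks, in 3 NS-DADm samples and 3 wild type (WT) samples. NS-DADm mice carry, in every tissue, knock-in mutations of the deacetylase-activating domains (DADs) of the corepressors NCOR and SMRT. WT mice carry neither mutation. The samples are numbered 1 to 3 within each group, as in their labels. Nothing in the labels states that the samples came from different mice, so each p-value reflects sample-to-sample spread, which may be technical. The knock-in is therefore not limited to heart muscle cells.

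Adipocytes store triglyceride in droplets coated by perilipin and CIDE proteins and release hormones such as adiponectin and leptin. Brown adipocytes also make heat through UCP1, a proton carrier of the inner mitochondrial membrane. PPARG is the nuclear receptor that drives adipocyte differentiation, and corepressors that carry the deacetylase HDAC3 can repress its target genes. Fat lies on the outer surface of the heart, along the grooves and around the atria and great vessels, and Fabp4 is also made by capillary endothelial cells.

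Total expected counts, the estimated reads per gene summed over a sample, were 12262523 to 12758311 in NS-DADm samples and 10183792 to 11205221 in WT samples. Levels are given in FPKM, the count scaled by gene length and by mapped reads, as deposited. Where a sample did not list a gene, its level was set to 0. The heart muscle genes Myh6 and Tnnt2 were at 5189 FPKM or more and at 6188.5 FPKM or more in all 6 samples, which matched the tissue label. The RNA level of Ncor1, which encodes NCOR (log2 fold change 0.10, SE 0.06), and of Hdac3 (0.03, SE 0.07) did not pass edgeR's quasi-likelihood test (adjusted p = 0.432 and 0.884). A knock-in of this kind need not change the amount of RNA, so these levels do not check the labels. Each SE of an edgeR log2 fold change is derived from the test. It is the fold change without its sign, divided by the square root of the test's F value.

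RefSeq promoters on the assembly GRCm38.p6 were matched for 8 of the 10 genes, all but Cidea and Fabp4. The 250 bases before the start are printed 5′ to 3′ for 5 genes, Adipoq, Plin1 and Pck1 because their levels moved together, Ucp1 as the brown fat gene and Lep as the gene that did not follow. Capitals mark every match, on either strand, to the letters TTNCNNAA (bound by C/EBP factors, with the palindrome TTGCGCAA inside it), AGGTCA (the nuclear receptor half-site, contained in the PPAR direct repeat), TATAAA, TGACGTCA or TTACGTCA (cyclic AMP response elements).
Adipoq (chr16:23146286-23146535, plus strand): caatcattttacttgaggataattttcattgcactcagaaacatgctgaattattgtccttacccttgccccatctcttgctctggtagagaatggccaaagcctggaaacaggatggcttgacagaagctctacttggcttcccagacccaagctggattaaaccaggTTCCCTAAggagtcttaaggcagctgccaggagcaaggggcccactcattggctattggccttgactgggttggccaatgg
Plin1 (chr7:79732777-79733026, minus strand): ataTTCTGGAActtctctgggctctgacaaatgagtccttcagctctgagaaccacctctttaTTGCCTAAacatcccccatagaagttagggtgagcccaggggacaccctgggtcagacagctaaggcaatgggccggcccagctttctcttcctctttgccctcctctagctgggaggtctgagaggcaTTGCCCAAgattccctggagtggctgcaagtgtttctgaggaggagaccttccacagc
Pck1 (chr2:173152823-173153072, plus strand): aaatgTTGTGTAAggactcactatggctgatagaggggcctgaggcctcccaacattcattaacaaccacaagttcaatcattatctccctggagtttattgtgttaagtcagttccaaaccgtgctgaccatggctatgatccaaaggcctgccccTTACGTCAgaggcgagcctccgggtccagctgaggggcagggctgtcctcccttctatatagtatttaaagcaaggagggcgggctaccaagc
Ucp1 (chr8:83290098-83290347, plus strand): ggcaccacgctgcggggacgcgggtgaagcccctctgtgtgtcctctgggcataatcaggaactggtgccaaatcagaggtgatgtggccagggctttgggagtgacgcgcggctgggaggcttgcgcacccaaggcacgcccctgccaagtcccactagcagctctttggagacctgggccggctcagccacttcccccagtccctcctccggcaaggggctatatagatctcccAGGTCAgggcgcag
Lep (chr6:29059971-29060220, plus strand): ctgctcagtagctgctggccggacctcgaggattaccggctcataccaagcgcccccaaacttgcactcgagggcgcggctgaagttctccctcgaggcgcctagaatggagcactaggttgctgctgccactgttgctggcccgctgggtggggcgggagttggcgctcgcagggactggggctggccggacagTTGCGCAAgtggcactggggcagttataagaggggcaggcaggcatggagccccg
The letters TTNCNNAA occurred in 5 of the 8 genes (Adipoq, Plin1, Cidec, Lep and Pck1) and in 36.8% of all 32851 such windows. Cidec had 2 windows, each with a match, so the 8 genes had 9 windows. The count is of genes and the share is of windows, so they are not like for like. Lep held the palindrome TTGCGCAA, found in 0.164% of windows, and Pck1 held TTACGTCA, found in 0.447%. Ucp1 held AGGTCA, found in 14% of windows. The PPAR direct repeat (2 copies of AGGTCA with 1 base between), TATAAA and TGACGTCA were not in the windows of these 8 genes, and were in 0.0335%, 12.4% and 1.55% of all windows. A match describes letters only and was not tested as a binding site.

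Co-movement of 7 genes was the main pattern. Adipoq, Cfd, Plin1, Cidec, Retn, Pck1 and Ucp1 differed many-fold between samples of the same group, and each was highest in NS-DADm 3. Cidea and Fabp4 were highest there too, as were 17.3% of all genes with a mean of at least 0.5 FPKM. Adipoq, which encodes the adipocyte hormone adiponectin, had 6.51, 0.74 and 25.4 FPKM in NS-DADm samples, against 2.97, 0.51 and 8.02 FPKM in WT samples. NS-DADm 3 was the highest, the samples numbered 2 were the lowest in each group, and the groups overlapped.

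Among the secreted proteins, Cfd, which encodes adipsin (complement factor D), reached the highest level. It had 30.61, 4.86 and 156.39 FPKM in NS-DADm samples, against 1.53, 1.85 and 51.49 FPKM in WT samples. In NS-DADm 3 it was the gene of rank 493 by FPKM, and in WT 1 of rank 10809. Retn, which encodes the mouse adipocyte hormone resistin, had 3.44, 0.44 and 23.43 FPKM in NS-DADm samples, against 1.40, 0.93 and 7.92 FPKM in WT samples. Retn counts were 23, 3 and 156 in NS-DADm samples, against 8, 5 and 48 in WT samples. Both genes were highest in NS-DADm 3 and next highest in WT 3, so the groups overlapped.

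Lep, which encodes leptin, had another order. It had 4, 3 and 1 counts in NS-DADm samples, against 28, 3 and 2 counts in WT samples, or 0.10, 0.07 and 0.03 FPKM in NS-DADm samples, against 0.82, 0.09 and 0.06 FPKM in WT samples. Only WT 1 held more than 4 counts, and NS-DADm 3, the sample with the most Adipoq, held the fewest.

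Of the lipid droplet genes, Cidec and Plin1 followed Adipoq. Cidec, a droplet protein that lets droplets grow in white adipocytes, had 4.25, 0.82 and 20.53 FPKM in NS-DADm samples, against 2.62, 0.60 and 5.66 FPKM in WT samples. Plin1, the perilipin that guards the adipocyte droplet from lipases, had 1.07, 0.35 and 4.59 FPKM in NS-DADm samples, against 0.82, 0 and 1.03 FPKM in WT samples. Its counts were 24, 8 and 103 in NS-DADm samples, against 16, 0 and 21 in WT samples. For both genes NS-DADm 3 stood at 3.63 times (Cidec) and 4.29 times (Plin1) the next highest sample.

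Pck1, the cytosolic enzyme that feeds glycerol synthesis in fat cells, had 4.62, 0.86 and 19.23 FPKM in NS-DADm samples, against 0.98, 0.12 and 3.95 FPKM in WT samples. It spanned 160-fold between its highest and lowest sample, NS-DADm 3 and WT 2. Ucp1 was listed in 3 of the 6 samples, with 1.69, 0 and 23.62 FPKM in NS-DADm samples, against 0, 0 and 0.68 FPKM in WT samples. Its counts were 33, 0 and 457 in NS-DADm samples, against 0, 0 and 12 in WT samples, so 1 library carried most of them.

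Cidea and Fabp4 stood apart from the others in being high and even in every sample. Cidea, a CIDE protein abundant in mouse brown fat, had 33.06, 29.24 and 39.72 FPKM in NS-DADm samples, against 29.24, 27.41 and 22.66 FPKM in WT samples. The groups met at 29.24 FPKM, in NS-DADm 2 and WT 1, and the coefficient of variation over all 6 samples was 19.0%. Fabp4, a fatty acid carrier, had 1217.5, 1180.87 and 1408.48 FPKM in NS-DADm samples, against 1254.62, 1212.55 and 1231.87 FPKM in WT samples. It ranked from 42 to 58 by FPKM, with a coefficient of variation of 6.46%, against 127% to 219% for the 7 genes that moved together and 158% for Lep.

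**Figure D1:**
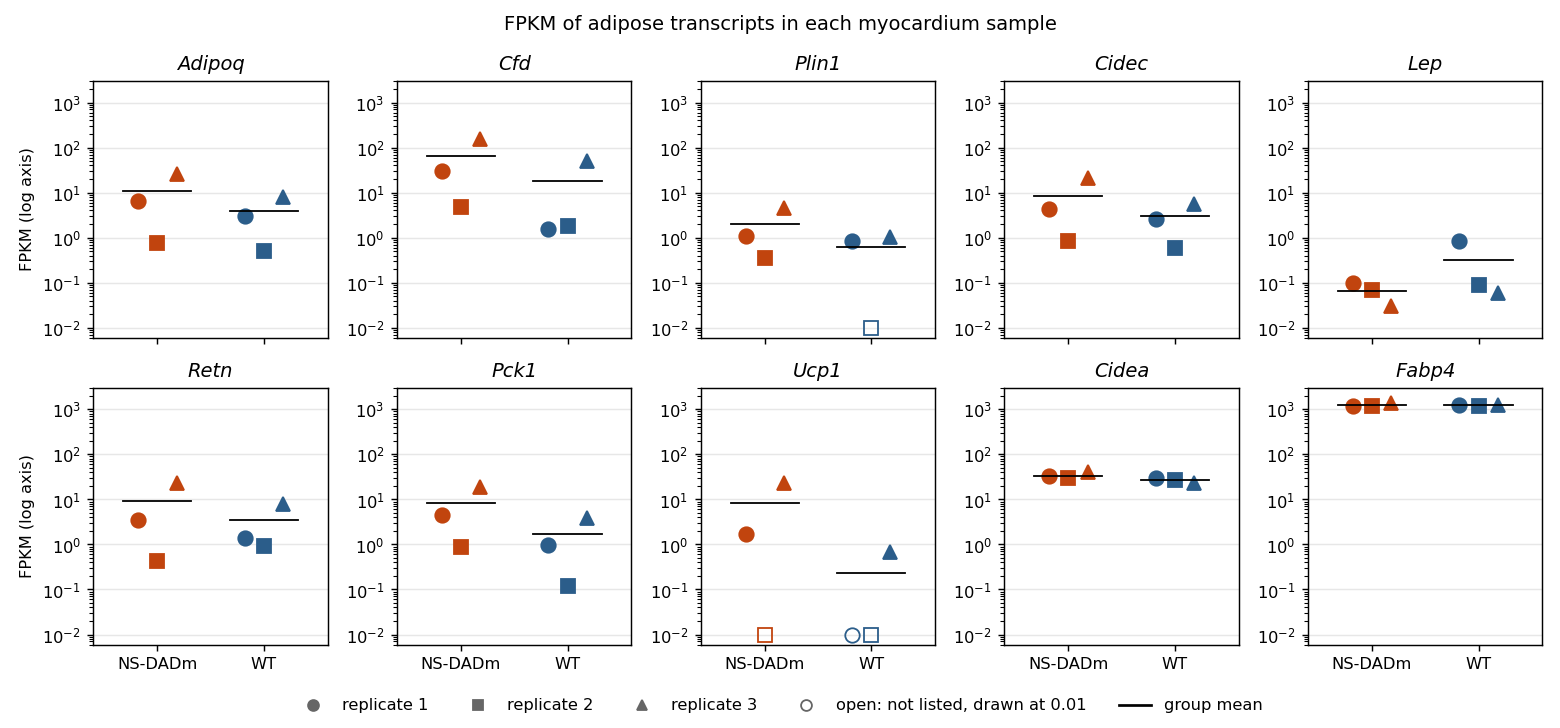
FPKM (log axis) of each of the 10 genes in 3 NS-DADm samples (left in each panel) and 3 WT samples (right); marker shape gives the replicate, lines give group means, and open markers at 0.01 are samples where the gene was not listed. Adipoq runs from 0.74 to 25.4 FPKM among NS-DADm samples and from 0.51 to 8.02 FPKM among WT samples, while Fabp4 stays between 1180.87 and 1408.48 FPKM.

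Summed over the 10 genes, the level was 1303, 1218 and 1721 FPKM in NS-DADm samples, against 1295, 1244 and 1333 FPKM in WT samples, most of it Fabp4. Without Fabp4 and Cidea the sum was 52.3, 8.14 and 273 FPKM in NS-DADm samples, against 11.1, 4.10 and 78.8 FPKM in WT samples. That is 0.00949%, 0.00152% and 0.0511% of all FPKM in NS-DADm samples, against 0.00199%, 0.000742% and 0.0148% in WT samples. In both groups replicate 3 held the most. In bulk tissue, fewer cells of a type and less RNA per cell cannot be told apart.

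Co-variation with Adipoq was measured over the 6 samples on log2(FPKM + 0.1). Cidec followed it most closely of the other 9 genes (Pearson r = 0.994, two-sided exact permutation p = 0.00139, the smallest that 720 pairings can give; Spearman rho = 1, p = 0.00278). Pck1 had r = 0.956 and rho = 0.943 (exact permutation p = 0.00556 and 0.0167), Retn r = 0.946 and rho = 0.943 (0.00694 and 0.0167), and Plin1 r = 0.937 and rho = 0.943 (0.00278 and 0.0167). Ucp1 had r = 0.899 and rho = 0.880 (exact permutation p = 0.025 and 0.05), and Cfd r = 0.867 and rho = 0.829 (0.0319 and 0.0583). Fabp4, with its narrow range, had r = 0.772 and rho = 0.771 (exact permutation p = 0.0417 and 0.103).

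Cidea (r = 0.435, rho = 0.406, exact permutation p = 0.372 and 0.444) and Lep (r = -0.19, rho = -0.54, p = 0.744 and 0.297) did not follow Adipoq over the 6 samples. Without WT 3, the r of Cidea was 0.94, and without NS-DADm 3 it was -0.15. These 9 relations were part of 12663 computed over all genes with a mean of at least 0.5 FPKM and Lep, which is below it, and none passed Benjamini-Hochberg adjustment over them. The lowest adjusted p of any gene was 0.475, and the 9 genes ran from 0.475 for Cidec to 0.991 for Lep. Over all those genes, 1.62% (205) had r of at least 0.9, against 4 of these 9.

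Leaving out NS-DADm 3 and WT 2, the samples farthest from the median of Adipoq, left r at 0.997 for Cidec, 0.979 for Plin1, 0.966 for Retn, 0.873 for Pck1 and 0.811 for Ucp1 over 4 samples. It left Cfd at 0.675, Fabp4 at 0.635, Lep at -0.05 and Cidea at -0.28, so that the values of Cfd and Fabp4 rested in part on the samples left out. After the group means were taken out, r was 0.994 for Cidec, 0.989 for Pck1, 0.951 for Retn, 0.946 for Plin1, 0.917 for Ucp1 and 0.869 for Cfd. The genes thus moved together within genotypes. Without WT 1, the r of Cfd was 0.992, the highest of its values with 1 sample left out.

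**Figure D2:**
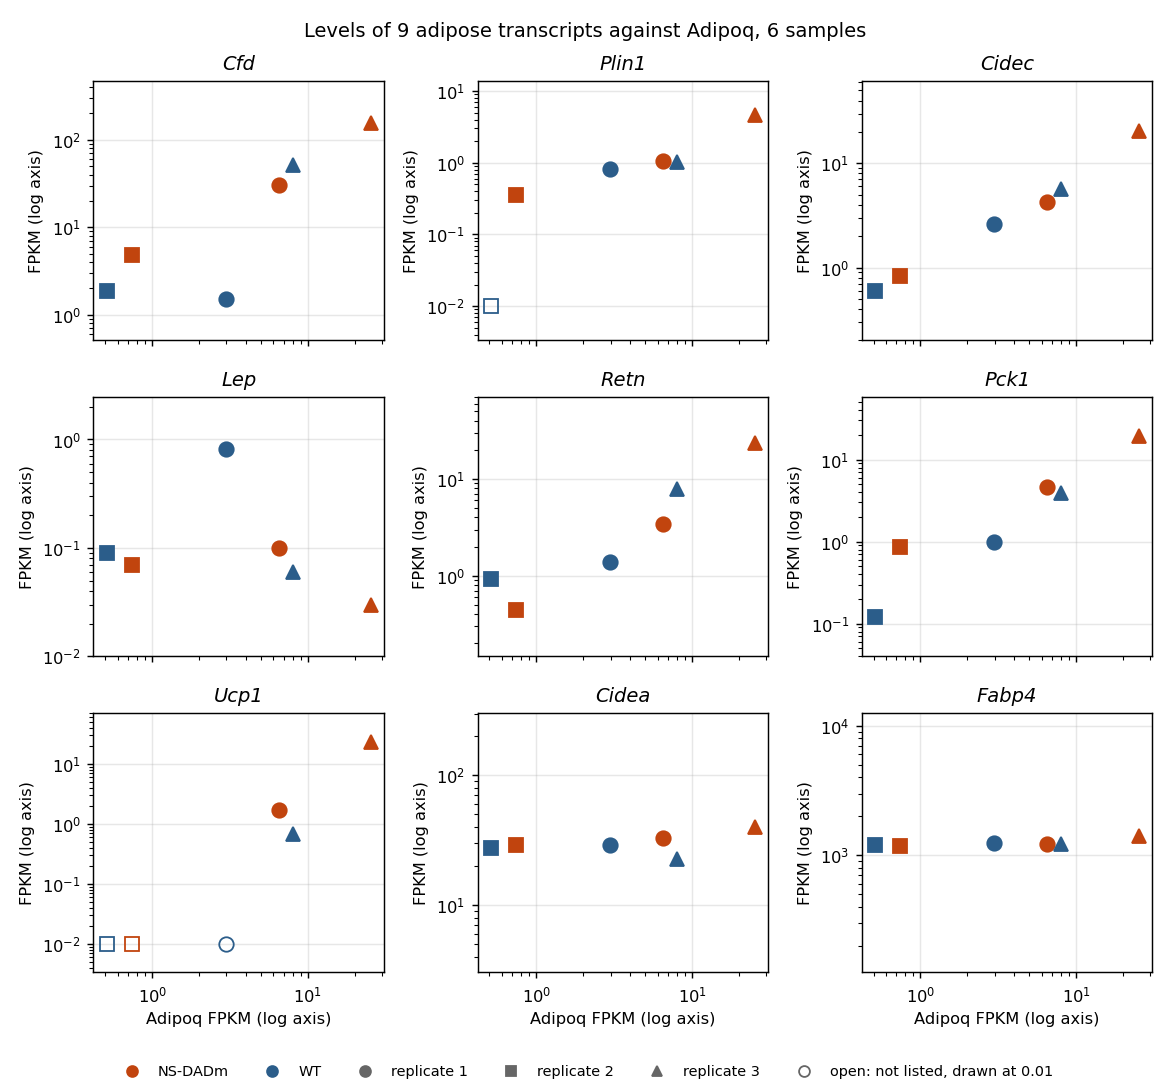
FPKM of 9 genes (y, log axis) against Adipoq FPKM (x, log axis) in 6 samples; colour gives the group and shape the replicate, and open markers at 0.01 are samples where the gene was not listed. Cidec (r = 0.994) rises along with Adipoq, Fabp4 and Cidea stay level, and Lep is highest in WT 1.

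The mix of adipose transcripts differed between samples as well as their amount. The counts of a gene as a share of its own and Adipoq counts were compared, with exact Clopper-Pearson 95% intervals that cover counting error only. The share of Cidec was 47.8%, 60.7% and 53.3% in NS-DADm samples, against 55.4%, 62.5% and 49.8% in WT samples. Cfd took 77.6%, 82.8% and 81.9% in NS-DADm samples, against 27.5%, 72.7% and 82.5% in WT samples. Pck1 took 60.8%, 71.8% and 62.4% in NS-DADm samples, against 42.2%, 33.3% and 51.8% in WT samples, so its shares lay apart by group. Its intervals did not. That of WT 2 (7.49% to 70.1%, from 3 Pck1 and 6 Adipoq counts) overlapped those of all NS-DADm samples. Those of WT 1 (29.9% to 55.2%) and WT 3 (45.0% to 58.6%) overlapped those of NS-DADm 1 (54.4% to 67.0%) and NS-DADm 2 (55.1% to 85%). The interval of NS-DADm 3 (59.2% to 65.45%) lay above those of WT 1 and WT 3. How often such shares lie apart over all genes was not computed. The groups overlapped for the shares of Plin1, Retn and every other gene of the set. For Cfd, WT 1 lay below the others, with an interval of 15.9% to 41.7%, from 14 Cfd and 37 Adipoq counts.

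Lep took 4.08%, 21.4% and 0.275% in NS-DADm samples, with an interval of 0.00696% to 1.52% in NS-DADm 3. In WT samples it took 43.1% (30.9% to 56.0%, from 28 Lep and 37 Adipoq counts), 33.3% (7.49% to 70.1%, from 3 and 6 counts) and 1.87% (0.227% to 6.59%). By these shares WT 1 held the most Lep and the least Cfd beside Adipoq. Its Lep interval overlapped those of WT 2 and of NS-DADm 2 (4.66% to 50.8%, from 3 Lep and 11 Adipoq counts).

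For Ucp1 the share was 26.0% in NS-DADm 1 (18.6% to 34.5%) and 55.7% in NS-DADm 3 (52.3% to 59.2%), against 10.3% in WT 3 (5.41% to 17.2%). Those 3 intervals do not overlap. No Ucp1 count was present beside 11 Adipoq counts in NS-DADm 2, which allows a share of up to 28.5%, nor beside 37 and 6 in WT 1 and WT 2, which allows up to 9.49% and 45.9%. Each share belongs to 1 library, and no test between genotypes was made of them.

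**Figure D3:**
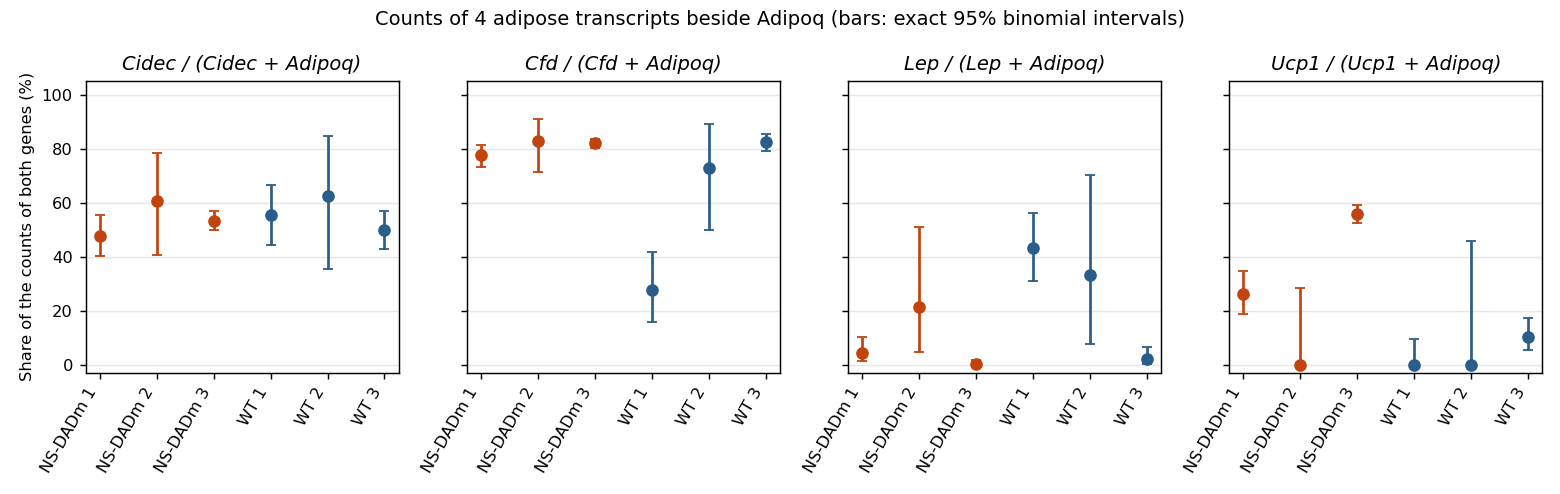
Counts of Cidec, Cfd, Lep and Ucp1 as a percentage of their own plus Adipoq counts (y) in each NS-DADm and WT sample (x); bars are exact 95% binomial intervals. The Cidec share lies between 47.8% and 62.5% in all samples, Cfd falls to 27.5% in WT 1, and Ucp1 reaches 55.7% in NS-DADm 3.

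The comparison of NS-DADm with WT asked whether the corepressor mutations change these transcripts in the myocardium. With edgeR's quasi-likelihood test over all 6 samples, 0 of the 9 genes tested were called, against 3.20% of all 13130 genes tested. Lep, with too few counts, was not tested. All 9 had positive log2 fold changes, with a median of 1.52, against -0.003 over all genes. At an unadjusted p under 0.05 there were 3 of 9 (Ucp1, Cidea and Pck1), against 2370 of the 13130 genes, and DESeq2's Wald test and limma on log2(FPKM + 1) or log2(FPKM + 0.1) called 0. The labels state no pairing of same-numbered samples. With such a pairing in the model (a replicate block), edgeR called 6 of the 9 genes, against 895 of the 13130. The FPKM of the groups overlapped or met in all 10 genes, against 23.4% of all tested genes whose groups lay apart. Without NS-DADm 3 they also overlapped or met in all 10, against 33.8% of genes whose groups lay apart.

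Ucp1 had the largest estimate, a log2 fold change of 5.13 (SE 1.70, adjusted p = 0.142, edgeR), from 490 counts over the NS-DADm samples and 12 over the WT samples. It was called when NS-DADm 2, which held 0 Ucp1 counts, was left out (5.71, adjusted p = 0.0494, edgeR). That was the 1 call among 9 genes tested, against 273 of all 13224 genes tested. Pck1 had 2.27 (SE 0.98, adjusted p = 0.256), Cfd 1.79 (SE 1.15, adjusted p = 0.457) and Plin1 1.68 (SE 0.91, adjusted p = 0.367). Cidec, Adipoq and Retn stood at 1.52 (SE 0.90), 1.49 (SE 0.94) and 1.40 (SE 1.04), with adjusted p of 0.416, 0.446 and 0.525. The standard errors near 1 come with the many-fold spread within each group (DESeq2's own were 1.43 for Adipoq and 3.71 for Ucp1). Cidea, with little spread, had 0.39 (SE 0.12, adjusted p = 0.129), and its mean was 34.0 ± 5.3 FPKM in NS-DADm samples and 26.4 ± 3.4 FPKM in WT samples (SD, n = 3 each). Fabp4 had 0.07 (SE 0.07, adjusted p = 0.656), with 1269 ± 122 FPKM in NS-DADm samples and 1233 ± 21 FPKM in WT samples.

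Without NS-DADm 3, the comparison of 2 NS-DADm with 3 WT samples called 0 of 9 genes, against 2.50% of 13143, and the median log2 fold change was near 0 (-0.00096). It had 1 of 9 genes at an unadjusted p under 0.05 (Cidea), against 2121 of the 13143, and DESeq2's test and limma called 0. Adipoq stood at -0.07 (SE 0.87), Cfd at -0.04 (SE 1.11), Cidec at -0.22 (SE 0.74), Retn at -0.81 (SE 0.92) and Plin1 at 0.19 (SE 0.83), with adjusted p of 0.733 to 0.991 by edgeR. Pck1 kept 0.70 (SE 0.87, adjusted p = 0.757) and Ucp1 1.83 (SE 1.33, adjusted p = 0.551). Cidea stood at 0.27 (SE 0.12, adjusted p = 0.303) and Fabp4 at -0.00096 (SE 0.07, adjusted p = 0.996). WT 3 held 51.49 FPKM of Cfd, against 1.53 and 1.85 FPKM in WT 1 and WT 2. With WT 3 also left out, Cfd was called (log2 fold change 3.41, adjusted p = 0.0354, edgeR). That was the 1 call among 7 genes tested, against 469 of all 13062 genes tested. With the replicate block and without NS-DADm 3, 3 of 9 genes (Pck1, Cfd and Ucp1) were called, against 659 of all 13143 genes tested.

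**Figure D4:**
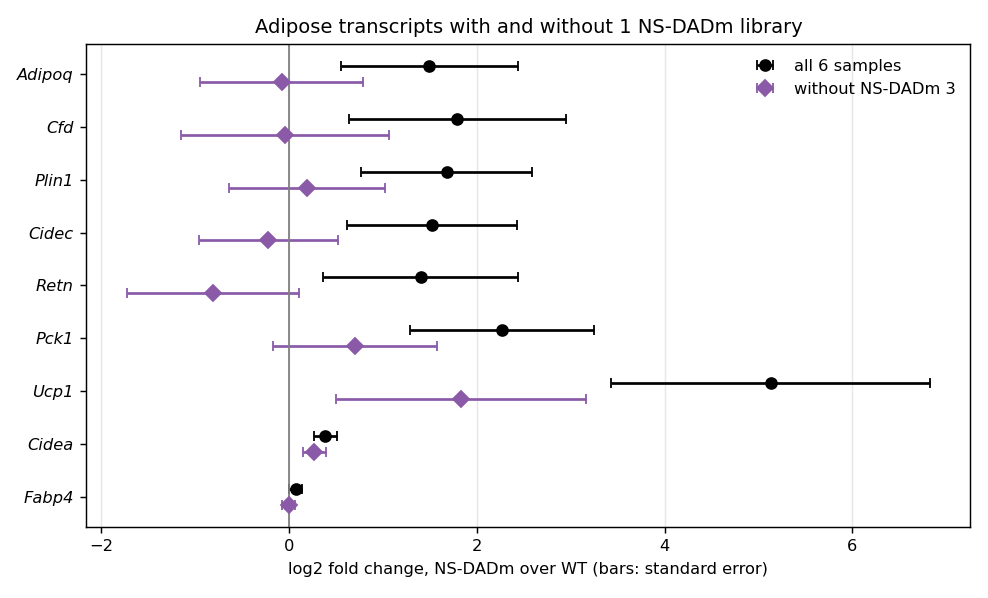
Log2 fold change of NS-DADm over WT (x, bars are standard errors) for the 9 genes tested, with all 6 samples (circles) and without NS-DADm 3 (diamonds). Adipoq moves from 1.49 with all samples to -0.07 without NS-DADm 3, while Fabp4 is near 0 in both. Standard errors are derived from the F value of edgeR's test.

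The wider adipocyte programme was followed with a list of 34 further genes. Means of list genes are given ± SD over 3 samples a group, and adjusted p-values are from edgeR. Of 30 tested, 2 rose with all 6 samples and 0 fell, with a median log2 fold change of 0.26, and 26 were positive. Without NS-DADm 3 the median was 0.09, with 1 rise. Agt, which encodes angiotensinogen, rose to 7.28 ± 1.3 FPKM in NS-DADm samples, against 2.85 ± 0.19 FPKM in WT samples (log2 fold change 1.37, SE 0.17, adjusted p = 0.00236, and 0.00775 without NS-DADm 3). The transcription factor gene Cebpb had 52.4 ± 6.3 FPKM in NS-DADm samples and 33.6 ± 7.2 FPKM in WT samples, with a log2 fold change of 0.67 (adjusted p = 0.0352). Without NS-DADm 3 its fold change was nearly as large, at 0.64, and did not pass (adjusted p = 0.0782). Neither followed Adipoq closely over the samples (r = 0.455 for Agt and 0.465 for Cebpb).

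Genes of that list with r of at least 0.9 were 4 of 31 (Car3, Mrap, Hp and Scd1, named after their values were seen). Car3, carbonic anhydrase 3 of fat and muscle, had the highest r of all genes (0.996), with 27.74, 5.61 and 121.8 FPKM in NS-DADm samples, against 15.29, 3.36 and 45.26 FPKM in WT samples. Scd1, a fatty acid desaturase, had 55.43 FPKM in NS-DADm 3 and 5.01 to 12.48 FPKM in the other samples. Mrap kept a narrow range, from 8.57 FPKM in WT 2 to 9.71 FPKM in NS-DADm 3. The most abundant genes of the list, Lpl, Cd36 and Dgat2, are lipid uptake and storage genes that heart muscle itself expresses, and they stood at 2281 ± 77, 566.5 ± 52 and 279 ± 19 FPKM in NS-DADm samples and 2152 ± 197, 558.8 ± 16 and 258.5 ± 13 FPKM in WT samples (adjusted p = 0.531, 0.832 and 0.348). Pparg itself, chosen after its values were seen, stood at 9.33, 10.95 and 10.24 FPKM in NS-DADm samples, against 7.39, 7.90 and 7.82 FPKM in WT samples, and its r with Adipoq was 0.119. It was not among the genes called in either comparison.

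Of 22 further brown and beige fat genes, 14 were tested, 0 rose and 1 fell, with a median log2 fold change of -0.06. Cpn2 fell to 0.127 ± 0.090 FPKM in NS-DADm samples, against 0.557 ± 0.11 FPKM in WT samples (adjusted p = 0.0331). Without NS-DADm 3 the median was -0.12, Cpn2 again fell and Ppargc1a rose. Cox7a1 (2173 ± 129 FPKM in NS-DADm samples and 1955 ± 210 FPKM in WT samples) and Cox8b (1656 ± 140 and 1712 ± 191 FPKM in the same order) are respiratory chain subunits of muscle and brown fat and did not pass. Pdk4, a brake on glucose oxidation, did not either (129.8 ± 51 FPKM in NS-DADm samples and 131.9 ± 9.1 FPKM in WT samples). Of 14 genes of the list above the FPKM minimum, 0 had r of at least 0.9 with Adipoq, the median r was -0.26, and 3 (21.4%) were highest in NS-DADm 3, against 17.3% of all genes. Elovl3 and Dio2, genes of activated brown fat named after their values were seen, had their highest values in NS-DADm 3 (0.85 and 1.88 FPKM). Elsewhere Elovl3 was at most 0.13 FPKM and Dio2 at most 0.38 FPKM. Zic1, a marker of classical brown fat also named after its values were seen, was listed in NS-DADm 3 only. It stood at 0.05 FPKM, near the lowest FPKM listed (0.01). Prdm16 and Ebf2 of the same list, also named after their values were seen, did not follow Adipoq (r = -0.77 and -0.15). Prdm16 was lowest in NS-DADm 3, at 1.95 FPKM.

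Of 15 regulators of PPARG and of the corepressor complex, 2 rose and 0 fell (median log2 fold change 0.15), Cebpb and Tbl1xr1. Tbl1xr1, a subunit of the corepressor complex, rose to 12.2 ± 0.76 FPKM in NS-DADm samples, against 6.80 ± 0.27 FPKM in WT samples (adjusted p = 0.000164). Gps2, another subunit, had 28.1 ± 1.8 FPKM in NS-DADm samples and 26.5 ± 0.29 FPKM in WT samples and did not pass (adjusted p = 0.493). None of the 15 had an r with Adipoq of at least 0.9.

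Atrial transcripts moved with Adipoq. All 11 atrial myocyte markers were listed, and their sum was 4195, 837 and 7154 FPKM in NS-DADm samples, against 750, 488 and 5174 FPKM in WT samples. Of 10 tested, 0 were called (median log2 fold change 0.77, and 0.26 without NS-DADm 3). Bmp10, a growth factor gene of atrial myocytes named after its values were seen, was at 0 in NS-DADm 2, WT 1 and WT 2. Nppa, the atrial natriuretic peptide gene, had r = 0.939 with Adipoq, Myl4 0.896 and Myl7 0.883, and 3 of 10 had r of at least 0.9. NS-DADm 3 was highest in 9 of those 10. Nppa was 4204 FPKM in NS-DADm 3 and 2728 FPKM in WT 3, Myl4 1029 and 736 FPKM, and Myl7 804 and 795.5 FPKM in the same order, beside 25.4 FPKM of Adipoq in NS-DADm 3 and 8.02 FPKM in WT 3. The part of atrial tissue in the adipose values was not tested.

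Epicardial and mesothelial markers, which mark the outer layer of the heart, summed to 83.1, 63.3 and 100.03 FPKM in NS-DADm samples, against 40.1, 34.1 and 51.5 FPKM in WT samples, with 13 of 14 listed and Muc16 at 0 throughout. C3, a complement gene, made up most of the sum and was the 1 gene called of 9 tested (63.5 ± 8.8 FPKM in NS-DADm samples and 31.5 ± 6.8 FPKM in WT samples, adjusted p = 0.00497). Without C3 the sum was 15.3, 9.92 and 30.6 FPKM in NS-DADm samples, against 10.99, 7.92 and 12.3 FPKM in WT samples. The median log2 fold change of the list was 1.03 with all samples and 0.22 without NS-DADm 3. Gpm6a, with 2.55, 1.24 and 5.45 FPKM in NS-DADm samples against 2.11, 0.94 and 3.19 FPKM in WT samples, had r = 0.993 with Adipoq. Msln and Upk3b, mesothelial surface genes named after their values were seen, were highest in NS-DADm 3 at 2.64 and 7.86 FPKM. Of 9 genes of the list above the FPKM minimum, 2 had r of at least 0.9 (Gpm6a and Msln), whereas Wt1 (r = -0.15) and Tbx18 (r = -0.25), also named after their values were seen, did not follow Adipoq. Aldh1a2 did not pass (3.47 ± 0.44 FPKM in NS-DADm samples and 2.84 ± 0.58 FPKM in WT samples). The part of the outer layer in the adipose values was not tested.

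The summed level of capillary endothelial markers was even, with all 18 above 0 in every sample and sums of 1427, 1587 and 1502 FPKM in NS-DADm samples, against 1469, 1490 and 1606 FPKM in WT samples. Cd36, which heart muscle also expresses, was the largest part. It held 522.8, 624.5 and 552.3 FPKM in NS-DADm samples, against 577.6, 550 and 548.7 FPKM in WT samples. The sum is therefore not a measure of endothelium alone. Of 18 tested, 0 rose and 1 fell, Meox2 (7.55 ± 0.61 FPKM in NS-DADm samples and 10.98 ± 0.86 FPKM in WT samples, adjusted p = 0.0196). Single markers were less even. The median r of the list with Adipoq was -0.06, and 1 of its 18 genes had r of at least 0.9, Vwf (0.922, named after its values were seen). Vwf had 19.07, 10.26 and 19.94 FPKM in NS-DADm samples, against 10.70, 6.73 and 17.51 FPKM in WT samples. Aqp1 and Ly6c1 had 150 ± 7.3 and 216.5 ± 29 FPKM in NS-DADm samples and 166 ± 16 and 239.6 ± 36 FPKM in WT samples and did not pass. Of 11 mesenchymal and adipocyte progenitor genes tested, 0 were called. Dcn, a matrix proteoglycan of fibroblasts, had r = 0.939 with Adipoq at 403 ± 40 FPKM in NS-DADm samples and 394 ± 40 FPKM in WT samples, whereas Cd34 (72.9 ± 1.7 and 79.1 ± 4.9 FPKM in the same order) and Ly6a (137.9 ± 2.4 and 123.2 ± 16 FPKM) had negative r.

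**Figure D5:**
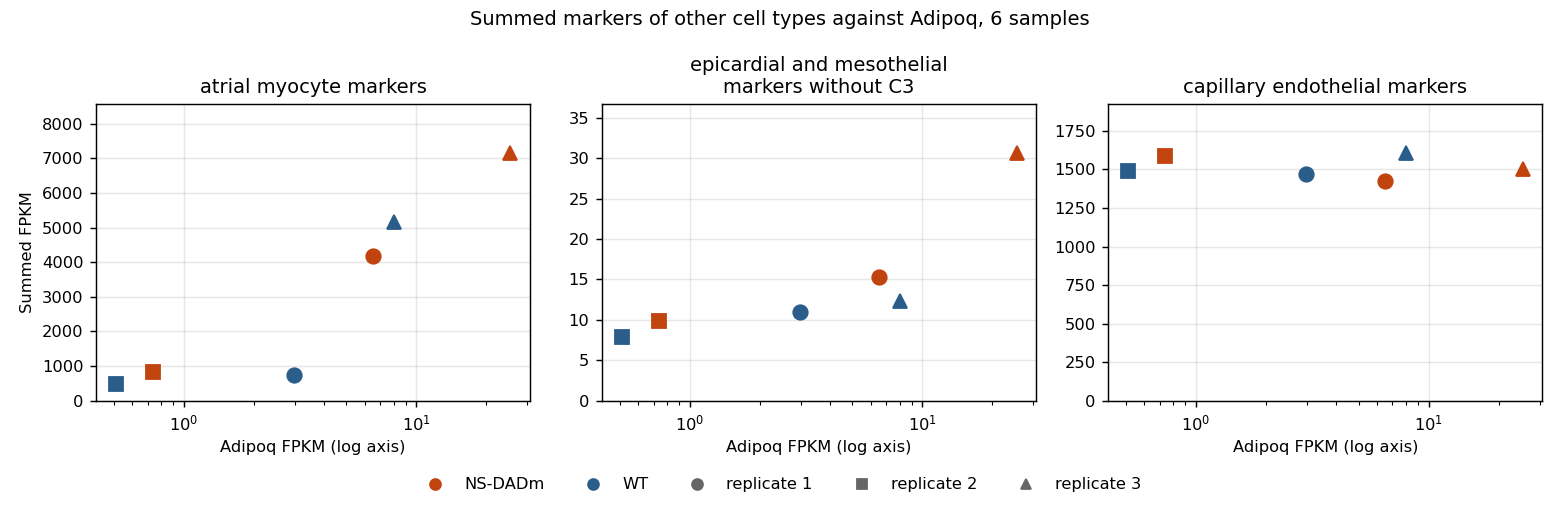
Summed FPKM (y) of atrial myocyte markers, of epicardial and mesothelial markers without C3, and of capillary endothelial markers against Adipoq FPKM (x, log axis) in 6 samples; colour gives the group and shape the replicate. The atrial sum is 7154 FPKM in NS-DADm 3 and 488 FPKM in WT 2, while the endothelial sum stays between 1427 and 1606 FPKM. Cd36, which heart muscle also expresses, is the largest part of the endothelial sum.

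The 10 genes with the highest r with Adipoq, at a mean of at least 1 FPKM, were Car3, Cidec, Gpm6a, Comp, Zfp865, Rarres2, Daam2, Commd8, Vim and Sycp3, with r from 0.981 to 0.996 over 6 samples. Their size of change differed, since r does not measure it. Car3 spanned 36.2-fold between its highest and lowest sample and Cidec 34.2-fold. Gpm6a spanned 5.80-fold, Comp, a cartilage matrix protein, 7.84-fold, and Rarres2, which encodes the adipokine chemerin, 1.81-fold. Commd8 and Zfp865 spanned 1.10-fold and 1.21-fold.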

How the data were processed

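RNA was measured in 6 myocardium samples. Per the labels' protocols, tissue was frozen, RNA was extracted with Trizol and libraries followed BGI protocols. HISAT, an aligner, appears in the submitters' processing notes without a version. How reads were counted, and on which genome build and gene models, is not given in the sources used here. Expected counts (estimated reads per gene or transcript) and FPKM were deposited by the authors, per the file headers; 10.8% to 11.6% of a sample's genes had counts that were not whole. No gene below an FPKM of 0.01 was listed. A row without a symbol, at most 0.00032% of counts, was left out.

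Counts were rounded, filtered with filterByExpr, scaled by TMM and tested by quasi-likelihood in edgeR 4.0.16 under R 4.3.3, with Benjamini-Hochberg adjustment over all tested genes and a threshold of 0.05, in all 6 samples and again without NS-DADm 3. Alternatives were DESeq2 1.42.0, limma 3.58.1 on log2(FPKM + 1) and log2(FPKM + 0.1), other scaling and filters, a replicate block and leaving out each sample. The fits were tested on simulated data. Gene correlations given without a p describe these samples only.

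The genes and the 11 further lists were chosen with earlier results of these data known. Named genes are the 10 genes, Ncor1, Hdac3, the 3 most abundant and up to 4 called genes of each list, and the 10 genes of at least 1 FPKM with the highest r with Adipoq, unnamed gene models left out. Other list genes that are named, among them Bmp10, Vwf and Zic1, were chosen after their values were seen. Another gene that the rule names is not reported here. Depth limits Lep and, in most samples, Ucp1, which rest on few counts. Other genes also had few counts in NS-DADm 2 and WT 2. Adipoq had 11 and 6 there, Retn 3 and 5, and Plin1 8 and 0, and Pck1 had 3 in WT 2. The low ends of their ranges, and the r values, rest in part on such counts.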

Additional observations from a re-analysis of the deposited data

How the results depend on the processing

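The calls over all genes depended on the setting. With all 6 samples, 420 genes were called, against 177 and 99 by limma on log2(FPKM + 1) and log2(FPKM + 0.1), and 117 to 382 with 1 sample left out (fewest without WT 2). Without NS-DADm 3, 328 were called, against 90 and 41 by limma and 86 to 469 with a further sample left out; 257 genes were called in both comparisons. The labels state no pairing, and same-numbered samples did not all deviate together (correlations of -0.0503, 0.33 and 0.398 for numbers 1, 2 and 3). Differently numbered samples had correlations from -0.439 to 0.190, so those of numbers 2 and 3 were higher than any of these. With a replicate block, 895 of 13130 genes were called with all samples and 659 of 13143 without NS-DADm 3. Of the 9 adipose genes tested, it called 6 (Pck1, Ucp1, Adipoq, Cfd, Cidec and Retn) and 3 (Pck1, Cfd and Ucp1) in the same order. The cause was not tested. Directions changed as follows. With 1 of 6 samples left out, log2 fold changes ran from -0.074 to 2.63 for Adipoq, -0.040 to 5.25 for Cfd, -0.22 to 2.39 for Cidec, -0.81 to 2.97 for Retn and -0.00096 to 0.11 for Fabp4, each lowest without NS-DADm 3. Without NS-DADm 3 and a further sample they ran from -2.32 to 1.06 for Adipoq, -1.88 to 3.41 for Cfd, -0.80 to 0.78 for Plin1, -1.82 to 0.65 for Cidec, -2.88 to 0.0090 for Retn, -0.93 to 2.30 for Pck1 and -0.012 to 0.0080 for Fabp4. In that comparison the block gave 1.05 for Adipoq, 3.33 for Cfd, 0.65 for Cidec and 0.69 for Retn, limma gave 0.91 and 1.17 for Cfd, and Fabp4 had 0.0017 with DESeq2 size factors, 0.0053 without a filter and 0.0016 with DESeq2's test. With 1 sample left out, r with Adipoq ran from -0.63 to 0.096 for Lep and from -0.15 to 0.94 for Cidea (-0.28 without the 2 farthest samples), and the number of genes with r of at least 0.9 from 3 to 6, against 4. The summed mean without Fabp4 was 145 FPKM in NS-DADm samples and 57.8 FPKM in WT samples, against 1414 and 1291 FPKM with it.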

Other observations

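Further lists give the other cells of the tissue. Of 14 macrophage markers tested, 7 rose and 0 fell (median log2 fold change 0.42, and 0.43 without NS-DADm 3), with C1qa at 83.7 ± 3.9 FPKM in NS-DADm samples and 60.3 ± 2.3 FPKM in WT samples (adjusted p = 0.00405, edgeR). None of the 14 had an r with Adipoq of at least 0.9. Of 3 thymus and lymphocyte markers tested, 0 were called, and the 16 genes summed to 2.85 to 5.44 FPKM in NS-DADm samples and 3.25 to 5.30 FPKM in WT samples, with Rag1 and Rag2 at 0 in each. Skeletal muscle markers summed to 2.54 to 5.67 FPKM in NS-DADm samples and 2.56 to 6.11 FPKM in WT samples, and none passed the low-count filter with all 6 samples. Of 6 erythroid markers tested, 0 were called, and Hba-a1 had 1862 ± 622 FPKM in NS-DADm samples and 2739 ± 270 FPKM in WT samples.

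The transcript tables list a pair of models each for Cfd, Plin1, Cidec and Retn. The longer Cidec model (1720 bases) held 198.81 counts in NS-DADm 3 and 0 in the other samples, against 215.19 for the shorter model (1702 bases) in NS-DADm 3. The longer Plin1 model (1935 bases) likewise held 33.17 counts in NS-DADm 3 and 0 elsewhere. NS-DADm 1 held 86 Cidec counts and WT 3 held 104, all in the shorter model. These are estimated splits of shared reads.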
